A study of Homo sapiens with 20 samples.

Results

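Among the times sampled, the 29 long noncoding RNAs (lncRNAs) described here were highest 12 h after EGF was added to MDA-MB-468 cells. As no earlier time with EGF was sampled, an earlier peak of these lncRNAs would not be seen. They were chosen by their values in these libraries, from 16846 rows of a lncRNA biotype among 60271 annotated rows. A row was kept where the 12 h mean was the highest of the 5 group means, was at least 0.5 CPM, and was at least 2 times the untreated mean after 0.1 CPM had been added to both. CPM is the count divided by the total of the library and scaled to 1e6 counts. The peak at 12 h and the rise over untreated cells are therefore how the lncRNAs were selected, and they are given as values without a test. The number depends on the scaling: with TMM-scaled CPM (a scaling that allows for the composition of each library) the same rule kept 57 lncRNAs, all 29 among them.

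MDA-MB-468 is an epithelial cell line from a triple negative breast cancer, which carries very high levels of the EGF receptor. By the stated protocol, cells were cultured for 24 h and starved of serum for 24 h. They then stayed untreated (control, CTR) or received EGF at 50 ng/mL. Treated cells were exposed to it for 12, 24, 48 or 72 h. Each of the 5 groups had 4 biological replicates, so 20 libraries of 75-base single-end reads were available from 1 unmodified cell line. The groups were seeded together and harvested at the same time, so that they differed in when EGF was added, and 1 CTR group served all times. With serum removed 24 h after seeding, a common harvest means that shorter exposures followed a longer time without serum. The 24 h of starvation then cannot hold for every group, and the time without serum before EGF is tied to the EGF time.

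Library totals lay between 15611961 and 25856953 counts, and mitochondrial genes took 7.69 to 16.9% of them. The epithelial markers EPCAM, CDH1, KRT8, KRT18, KRT19 and KRT5 were at 83.6 CPM or more in all 20 libraries, and EGFR reached 3617 to 10890 CPM. PGR, the progesterone receptor, was at 0 in every library, ERBB2 was at 6.72 to 26.4 CPM and ESR1 at 1.71 to 6.91 CPM. Of the 8 markers of other cells, COL1A2, DCN, PTPRC, CD3E and VWF stayed at or below 0.464 CPM, while COL1A1 (5.33 to 15.2 CPM), CD68 (0.870 to 29.3 CPM) and PECAM1 (up to 5.55 CPM) were measured. In bulk RNA, a change in the number of cells that hold a transcript and a change in its amount per cell cannot be told apart.

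EGF binds its receptor tyrosine kinase and activates the RAS-MAPK cascade, which induces immediate early transcription factors such as the AP-1 proteins and, later, many further genes. lncRNAs are transcribed and spliced much like mRNAs but are not translated into a known protein. Some are host genes, whose introns or exons carry small RNAs: SNHG genes host small nucleolar RNAs, which guide the modification of ribosomal RNA, and MIR-HG genes host microRNAs, which repress mRNAs that pair with their seed, bases 2 to 8. Others act as the long transcript itself, for example as scaffolds for proteins, and for many no function is known.

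Among the 29 lncRNAs, 5 held annotated microRNAs within their span. They were MIR4435-2HG, CYTOR, MIR31HG, MIR23AHG and AC016831.1, the last of which was named after its values were seen because it contains miR-29b-1. The mature sequences from RefSeq on GRCh38.p14 are shown because the host transcripts, and not the mature microRNAs, were what the libraries measured. Capitals mark the seed.
hsa-miR-4435: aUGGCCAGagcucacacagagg
hsa-miR-31-5p: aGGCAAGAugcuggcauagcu
hsa-miR-23a-3p: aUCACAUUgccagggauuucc
hsa-miR-27a-3p: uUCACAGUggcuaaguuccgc
hsa-miR-24-3p: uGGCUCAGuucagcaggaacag
hsa-miR-29b-3p: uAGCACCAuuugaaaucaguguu
The sequence of miR-4435 is encoded once within MIR4435-2HG (chr2:111321061-111321082) and once within CYTOR (chr2:87629764-87629785). Over the 10 mature names that lie wholly within the 5 hosts there were 10 different seeds. Among these, none was shared apart from that of miR-4435 itself. The hairpin MIR29A, which shares only 2 exon bases with AC016831.1, was not counted. The rows of the hairpins MIR31, MIR23A, MIR27A, MIR24-2, MIR4435-1 and MIR4435-2 held 0 counts in all 20 libraries, which were made from long RNA, and the microRNAs themselves were not measured.

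CYTOR and MIR4435-2HG are copies of each other on chromosome 2, and their start regions are shown because, of the 11 start windows found, only these contained the AP-1 element. The windows run from 250 bases before to 50 bases after the RefSeq start, and capitals mark TGAGTCA.
CYTOR (chr2:87455177-87455476, plus strand): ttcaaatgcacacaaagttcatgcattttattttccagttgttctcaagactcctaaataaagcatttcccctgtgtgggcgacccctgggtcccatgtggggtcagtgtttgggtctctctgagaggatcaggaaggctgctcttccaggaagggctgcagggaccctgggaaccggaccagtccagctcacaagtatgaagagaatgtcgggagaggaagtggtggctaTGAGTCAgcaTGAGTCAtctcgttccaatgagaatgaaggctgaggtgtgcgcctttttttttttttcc
MIR4435-2HG (chr2:111495112-111495411, minus strand): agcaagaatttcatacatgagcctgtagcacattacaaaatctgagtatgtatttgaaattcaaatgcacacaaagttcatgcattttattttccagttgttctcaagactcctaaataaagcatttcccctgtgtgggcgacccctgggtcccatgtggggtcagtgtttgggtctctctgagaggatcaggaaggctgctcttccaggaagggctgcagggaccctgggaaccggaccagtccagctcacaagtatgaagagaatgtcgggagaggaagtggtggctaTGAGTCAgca
Both windows held the same sequence, shifted against each other by 59 bases, with 241 of 241 compared bases equal. TGAGTCA lay at -19 and -9 from the start of CYTOR and at +41 from that of MIR4435-2HG, so these matches come from 1 duplicated sequence. RefSeq places the starts 646 and 28215 bases from those of GENCODE, and other starts of these genes were not searched.

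RefSeq start windows were found for 11 of the 29 lncRNAs. TGAGTCA on either strand was present in 2 of 11 and in 4.95% of all 35116 windows, and in 6.88% of the 858 windows of expressed lncRNAs. CACGTG, the E-box bound by MYC and related factors, was also present in 2 of 11, against 7.26% of all windows and 7.69% of those of expressed lncRNAs. It is shown in capitals in the windows that held it.
LINC01285 (chrX:118839306-118839605, plus strand): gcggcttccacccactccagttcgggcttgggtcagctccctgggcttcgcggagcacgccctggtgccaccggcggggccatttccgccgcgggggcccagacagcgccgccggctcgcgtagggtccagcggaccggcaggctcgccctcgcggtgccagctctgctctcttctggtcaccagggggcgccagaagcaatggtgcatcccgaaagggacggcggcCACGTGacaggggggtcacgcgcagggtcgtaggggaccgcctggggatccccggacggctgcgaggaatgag
LINC01348 (chr1:235069769-235070068, minus strand): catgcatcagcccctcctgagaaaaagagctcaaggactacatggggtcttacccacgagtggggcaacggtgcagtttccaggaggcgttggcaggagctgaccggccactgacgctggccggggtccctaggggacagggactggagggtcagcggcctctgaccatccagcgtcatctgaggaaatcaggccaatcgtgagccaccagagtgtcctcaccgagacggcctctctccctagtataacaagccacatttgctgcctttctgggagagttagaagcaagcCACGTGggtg
LINC01348 was named here after its values were seen. CACGTG lay at -23 from the RefSeq start of LINC01285 and at +41 from that of LINC01348. The RefSeq start of LINC01348 is 4402 bases from that of GENCODE. For LINC00862 and LINP1 the distance is 26913 and 27852 bases, and other starts were not searched. TGACGTCA (CRE), CCGGAAGT (ETS) and GCGTGGGCG (EGR) were in 0 of 11 windows, against 1.85%, 4.14% and 0.7945% of all windows. None of the matches overlapped another motif, and a match in so few windows describes these letters only.

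The lncRNAs together made up 182 ± 14.3 CPM (SD, n = 4) in CTR, 562 ± 17.2 CPM at 12 h, 361 ± 22.5 CPM at 24 h, 311 ± 5.06 CPM at 48 h and 372 ± 12.3 CPM at 72 h. Counts of all lncRNA rows moved the other way at 12 h, with 0.876% ± 0.0217 of the library against 1.26% ± 0.0170 in CTR (SD, n = 4), and reached 1.53% ± 0.0131 at 48 h. Of 2425 lncRNAs that reached 0.5 CPM in at least 1 group, 73 had their highest mean at 12 h, against 596 in CTR, 196 at 24 h, 893 at 48 h and 667 at 72 h. These counts are by library total. They were not made after TMM scaling, which raises the 12 h levels against the other groups. The 3 lncRNAs with the highest CPM, MIR4435-2HG, CYTOR and SNHG15, held 62.5% of the summed 12 h level. At 12 h, 7 of the 29 were at or above 10 CPM, 13 between 1 and 10 CPM and 9 under 1 CPM.

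**Figure D1:**
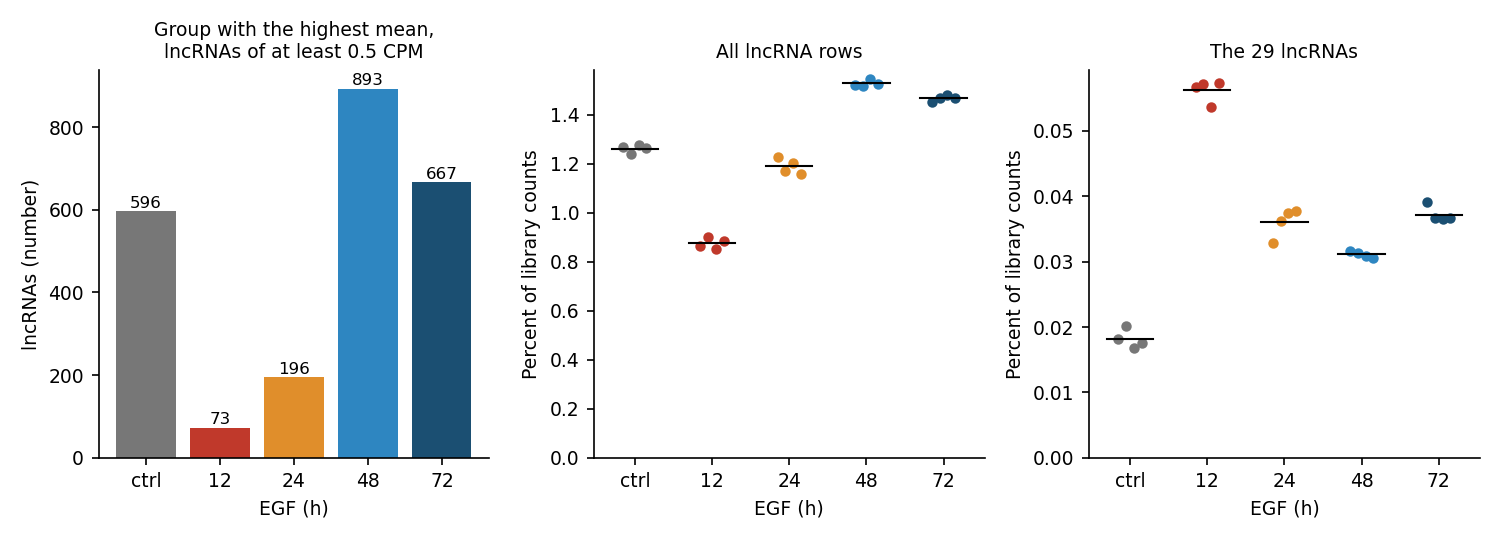
Left, number of lncRNAs of at least 0.5 CPM whose highest group mean, by library total, was in CTR or at a time after EGF (bars). Middle and right, percent of library counts in all lncRNA rows and in the 29 lncRNAs (points, libraries; lines, means; axes from 0). All lncRNAs together are lowest at 12 h (0.876%), while the 29 are highest there because they were selected so.

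The ratio of the 12 h to the CTR mean, with 0.1 CPM added to both, had a median of 3.08 and ranged from 2.05 to 58.7. The highest was that of FP671120.4, whose reads can be assigned to a copy as described below, and the next was 16.4 (LINC02721). In 26 of 29 all 4 libraries at 12 h lay above all 4 controls. The same held for 18.8% of all 16522 genes tested, and since the rule used this contrast nothing is read from the difference. The scaling matters for these sizes, as the median log2 change of all genes at 12 h was -0.34 by library total and -0.05 by TMM. All 4 libraries lay above all 4 controls in 16 of 29 at 24 h (18.7% of all genes), 18 at 48 h (19.9%) and 15 at 72 h (23.1%). Those at 12 h lay above every library of 24 h in 11 (17.9%), of 48 h in 16 (18.0%) and of 72 h in 13 (21.8%). The rule used the CTR and 12 h libraries on which these counts also rest. Nothing is therefore read from their difference to the shares of all genes. The median share of the 12 h rise that was kept was 48.2% at 24 h, 41.2% at 48 h and 56.0% at 72 h, with the lowest share at 48 h. Here and below, comparisons of CPM with 12 h are by library total. TMM factors were 0.862 to 0.898 at 12 h and 0.957 to 1.093 at the later times. TMM scaling therefore lowers the later levels against 12 h.

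**Figure D2:**
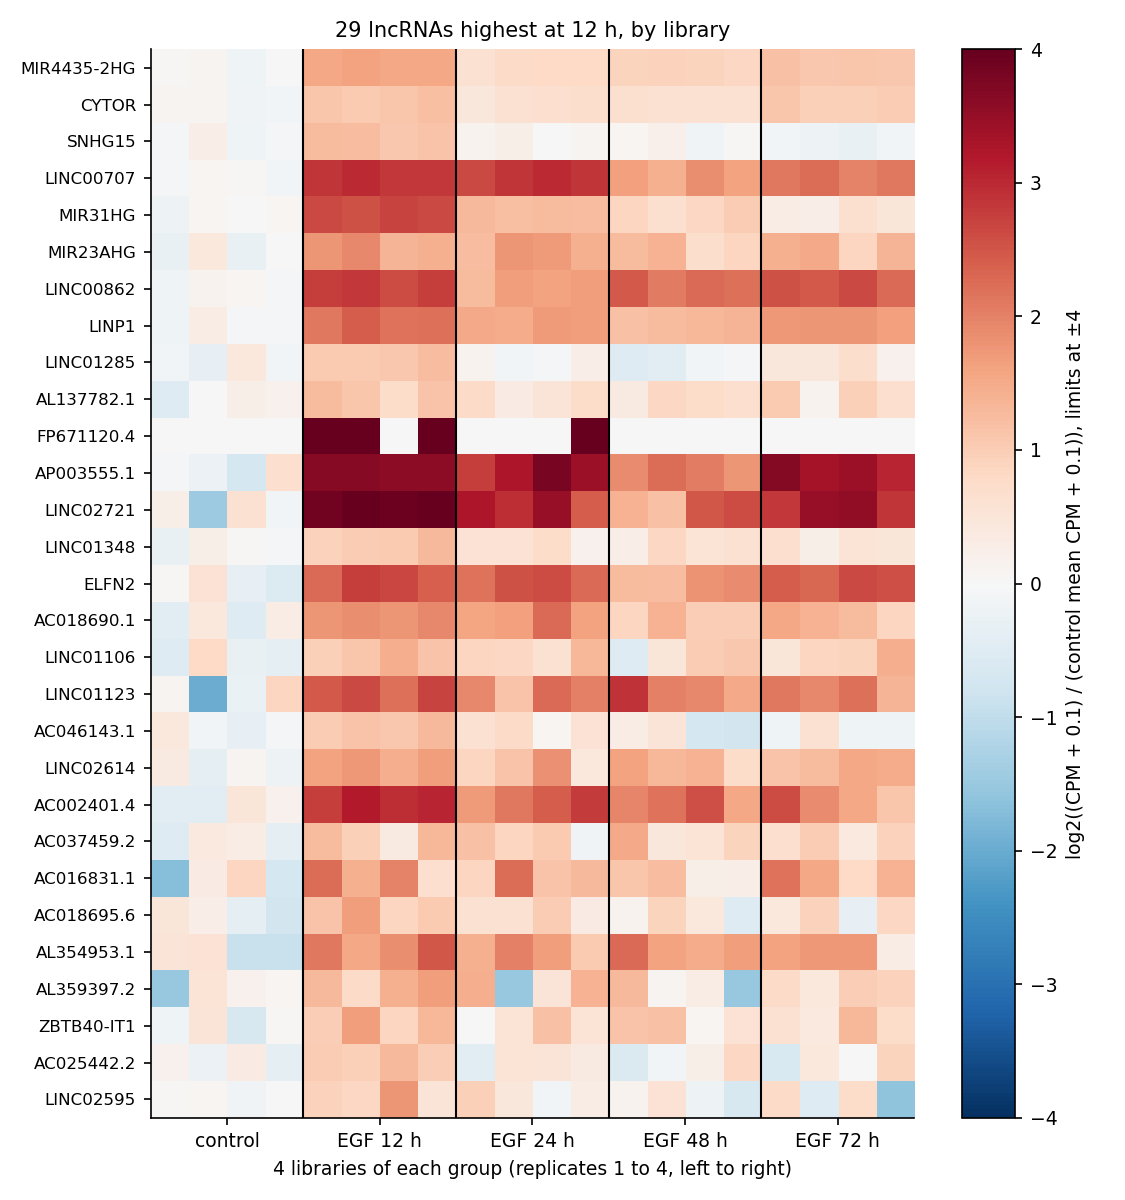
Level of each of the 29 lncRNAs (rows, ordered by 12 h mean CPM) in each of the 20 libraries (columns, grouped by treatment), coloured by log2((CPM + 0.1)/(CTR mean CPM + 0.1)) and cut at ±4. Rows are red at 12 h because they were selected on it, and FP671120.4 is coloured in 4 libraries only, 3 at 12 h and 1 at 24 h.

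Host genes of small RNAs are described first. MIR4435-2HG, the host of miR-4435 also known as MORRBID, was at 55.2, 57.7, 47.3 and 52.7 CPM in CTR and at 156, 163, 154 and 157 CPM at 12 h. It was at 81.8, 89.7, 92.9 and 92.5 CPM at 24 h, 99.7, 100, 98.4 and 94.9 CPM at 48 h and 120, 113, 114 and 112 CPM at 72 h. All EGF-treated libraries were above all controls, and the groups at 24, 48 and 72 h did not overlap in CPM.

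CYTOR, a cytoplasmic lncRNA that is widely studied in tumours, was at 57.9, 58.2, 48.4 and 49.7 CPM in CTR and at 117, 112, 114 and 124 CPM at 12 h. It stood at 73.6, 82.5, 84.8 and 88.0 CPM at 24 h, 84.2, 81.3, 81.0 and 81.6 CPM at 48 h and 117, 103, 105 and 109 CPM at 72 h. The groups at 24 and 48 h overlapped, and that at 72 h nearly reached the 12 h level by library total, though less so after TMM scaling. Of the stretches of 75 bases in the exons, 13.1% of those of CYTOR and 17.7% of those of MIR4435-2HG are found in the other, so that reads can be assigned to either. The sum of both was 107 ± 9.40 CPM in CTR, 274 ± 5.19 CPM at 12 h, 171 ± 11.3 CPM at 24 h, 180 ± 3.15 CPM at 48 h and 223 ± 9.24 CPM at 72 h (SD, n = 4).

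SNHG15, the host of SNORA9, was at 32.2, 40.2, 29.8 and 32.6 CPM in CTR and at 81.7, 79.1, 70.8 and 75.2 CPM at 12 h. At 24, 48 and 72 h its means were 37.1 ± 2.19, 34.9 ± 3.50 and 29.7 ± 1.88 CPM (SD, n = 4), with each group overlapping the controls. It kept 7.90% of its 12 h rise at 24 h. The row of SNORA9 itself had 0 counts in 18 of 20 libraries and at most 4.

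MIR31HG, the host of miR-31, was at 5.82, 7.0, 6.81 and 7.12 CPM in CTR and at 41.9, 39.8, 43.7 and 42.3 CPM at 12 h. It then went down at every step, to 16.6, 15.5, 16.3 and 16.01 CPM at 24 h, 12.3, 10.6, 12.0 and 13.6 CPM at 48 h and 8.28, 8.02, 10.4 and 9.48 CPM at 72 h. The libraries at 72 h were still all above all controls. Per kilobase of all annotated exon bases, MIR31HG was the highest at 12 h with 56.3 CPM per kb. Next were SNHG15 with 21.0, LINC02721 with 14.1, MIR4435-2HG with 12.0, LINC00707 with 7.49, AP003555.1 with 6.79 and CYTOR with 6.59. This length is not that of the transcript expressed. MIR31HG has 1 annotated transcript and 745 exon bases, and CYTOR has 38 and 17693, so the order also depends on the annotation. IFNWP19, an interferon pseudogene on the opposite strand, shares 40.7% of its exon bases.

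MIR23AHG, the host of miR-23a, miR-27a and miR-24-2, was at 4.13, 6.91, 4.15 and 5.18 CPM in CTR and at 17.5, 19.5, 13.1 and 13.9 CPM at 12 h. With 12.2, 17.6, 16.7 and 13.9 CPM at 24 h and 13.8, 14.8, 9.34 and 13.1 CPM at 72 h it overlapped with the 12 h group, and the 48 h libraries were at 12.5, 13.6, 8.34 and 9.35 CPM. All treated libraries stayed above all controls.

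LINC00707 and LINP1 are neighbours on chromosome 10 (chr10:6779549-6879450 and chr10:6709530-6740532, both on the plus strand, hg38), 39016 bases apart. LINP1 is known as a scaffold in the joining of broken DNA ends. Other lncRNAs annotated on the same strand share exon bases with both. Such bases make up 16.6% of the exon bases of LINC00707 and 6.17% of those of LINP1, and reads in them cannot be assigned. LINC00707 was at 9.68, 10.6, 10.3 and 9.17 CPM in CTR and at 72.9, 79.4, 71.1 and 71.0 CPM at 12 h, which is 7.40-fold. By library total it kept that level at 24 h, with 63.2, 72.6, 78.6 and 72.4 CPM. It was at 31.2, 26.6, 36.0 and 30.4 CPM at 48 h and at 43.5, 47.1, 39.9 and 43.2 CPM at 72 h. LINP1 was at 1.63, 2.26, 1.71 and 1.74 CPM in CTR, and at 8.31, 10.3, 8.53 and 8.91 CPM at 12 h. Its later libraries were at 5.45, 5.36, 6.20 and 6.02 CPM at 24 h, 4.30, 4.59, 4.73 and 4.82 CPM at 48 h and 6.30, 6.53, 6.53 and 5.96 CPM at 72 h. For both, the 48 h libraries were the lowest after 12 h, with no overlap with those of 24 or 72 h.

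LINC00862 took another course. It was at 1.90, 2.39, 2.26 and 2.05 CPM in CTR and at 15.1, 15.8, 13.5 and 15.2 CPM at 12 h. Its lowest treated group was that at 24 h, with 5.36, 7.09, 6.76 and 7.05 CPM, followed by 12.1, 9.38, 10.7 and 10.2 CPM at 48 h and 12.9, 12.1, 14.1 and 10.6 CPM at 72 h. No library at 24 h reached those at 48 or 72 h, while the groups at 48 and 72 h overlapped.

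LINC01285 on chromosome X was at 3.81, 3.25, 5.51 and 3.74 CPM in CTR, at 8.45, 8.61, 8.68 and 9.68 CPM at 12 h, and at 2.84, 3.04, 3.78 and 3.85 CPM at 48 h. Its 48 h mean of 3.38 CPM was below the CTR mean of 4.08 CPM, with overlapping libraries. AL137782.1 was at 3.85 ± 0.849 CPM in CTR and 8.24 ± 1.29 CPM at 12 h (SD, n = 4), and at 5.88 to 6.53 CPM in the later means. Its exons share 44.6% of their bases with UCHL3 and LMO7 on the same strand, and the mean of LMO7 went from 47.2 CPM in CTR to 139 CPM at 12 h. Reads in the shared bases cannot be told apart.

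Apart from FP671120.4, the largest ratios over CTR belonged to lncRNAs with few counts without EGF. AP003555.1 (chr11:70014858-70021059) was at 0.272, 0.226, 0.135 and 0.512 CPM in CTR and at 4.75, 4.70, 4.48 and 4.52 CPM at 12 h. It was at 2.55, 3.57, 5.27 and 4.06 CPM at 24 h, 1.33, 1.70, 1.49 and 1.22 CPM at 48 h and 4.87, 3.78, 4.08 and 3.07 CPM at 72 h, so the 48 h libraries lay below those of every other treated group. LINC02721 (chr11:33814877-33822095) was at 0.217, 0, 0.316 and 0.154 CPM in CTR and at 3.87, 4.94, 4.05 and 4.52 CPM at 12 h. With 14 counts in all 4 controls and 381 at 12 h, the ratio of its rates was 25.5 (exact 95% interval 14.995 to 47.0, for counting error only). Its later groups were at 2.18 ± 0.666, 1.02 ± 0.538 and 2.42 ± 0.679 CPM (SD, n = 4).

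ELFN2 here is the lncRNA row of that symbol, which starts 25 bases from the coding row of the same name, and reads in the 6.99% of its exon bases that lie in other exons of that strand cannot be assigned. It was at 0.435, 0.677, 0.316 and 0.256 CPM in CTR and at 2.39, 3.47, 3.24 and 2.64 CPM at 12 h, with 2.68 ± 0.421 CPM at 24 h, 1.46 ± 0.371 CPM at 48 h and 2.83 ± 0.308 CPM at 72 h (SD, n = 4). AC018690.1 was at 0.489, 0.948, 0.451 and 0.871 CPM in CTR and at 2.61, 2.74, 2.57 and 2.90 CPM at 12 h, and 1 library at 24 h (3.72 CPM) exceeded all of these. AC002401.4 had 3 counts in the 4 controls together and 86 at 12 h, a ratio of rates of 26.8 (exact 95% interval 8.88 to 133). AL354953.1 had 7 counts in CTR and 59 at 12 h, at 0.440 to 0.938 CPM. The 9 lncRNAs under 1 CPM had 48 to 87 counts over the 4 libraries at 12 h, and of these 9 values the depth limits the order.

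**Figure D3:**
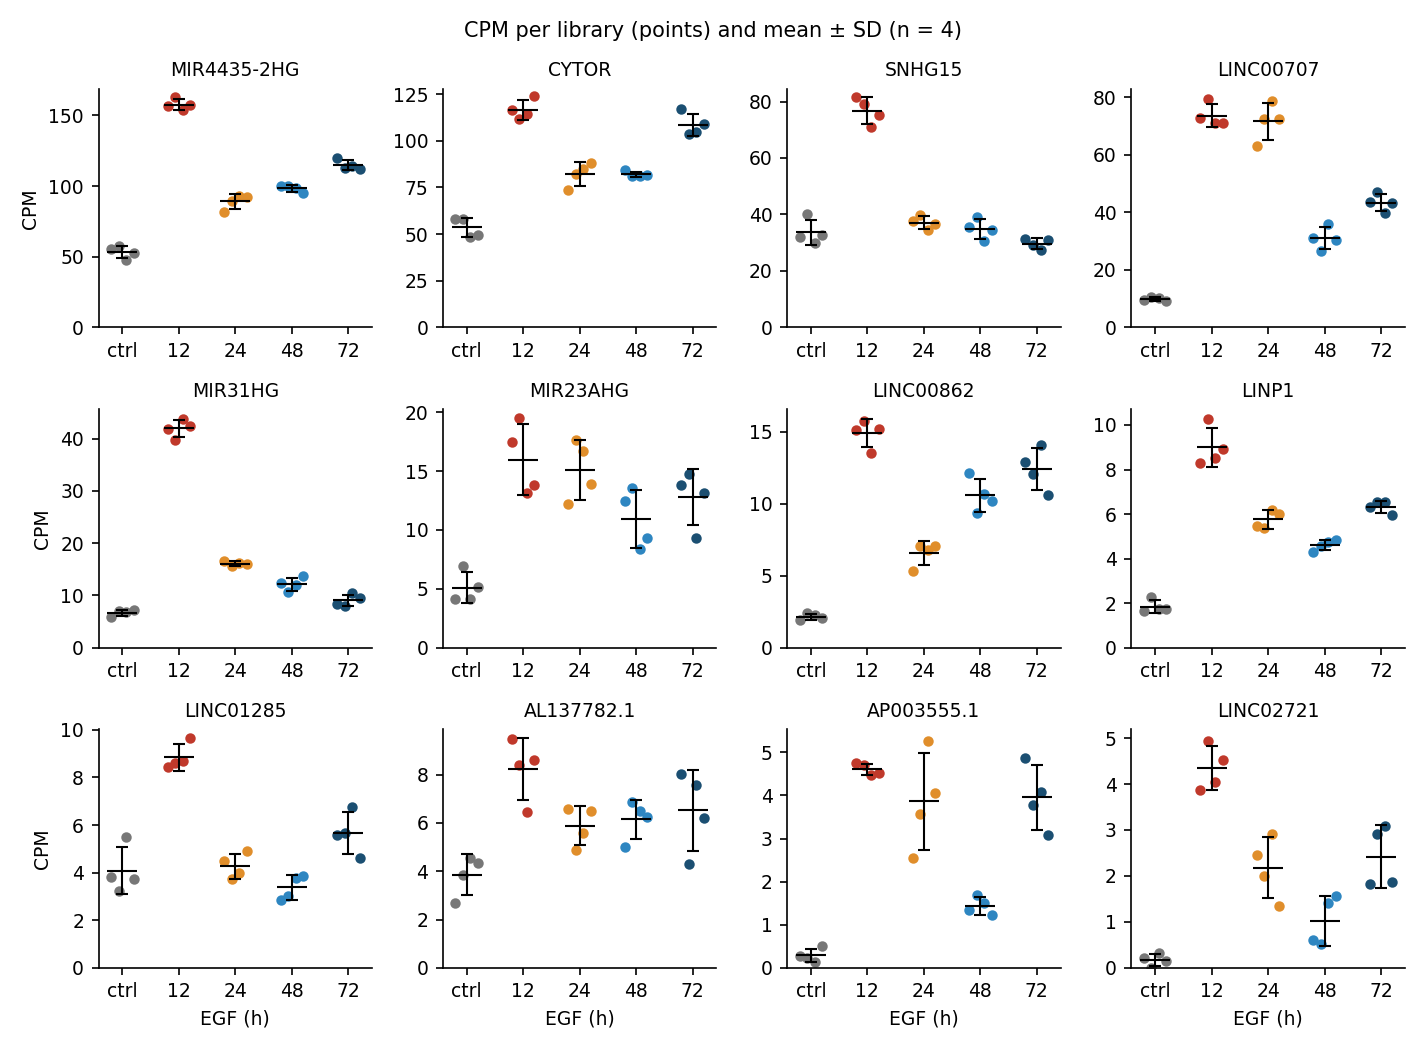
CPM in each library (points) with mean ± SD (lines, n = 4) in CTR and at 12, 24, 48 and 72 h, for the 12 lncRNAs with the highest mean at 12 h other than FP671120.4, each panel with its own linear axis from 0. By library total, LINC00707 stays at its 12 h level at 24 h, MIR31HG goes down at each step, and LINC00862 is lowest at 24 h among the treated groups.

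FP671120.4 is a member only through 3 of 4 libraries at 12 h. It had 163, 60, 0 and 306 counts at 12 h and 0, 0, 0 and 235 at 24 h, and 0 counts in each library of CTR, 48 h and 72 h. It lies in the ribosomal DNA region of chromosome 21, and all 2424 of its 75-base stretches, 100%, are also in the row FP236383.3. That row held 75 and 56 counts in the libraries of 12 and 24 h with the most FP671120.4 counts, and 213 to 380 in the 16 libraries where FP671120.4 was at 0. The sum of both rows was 16.05 ± 1.66 CPM in CTR, 17.2 ± 1.06 CPM at 12 h, 13.9 ± 0.713 CPM at 24 h, 17.1 ± 2.02 CPM at 48 h and 13.96 ± 1.35 CPM at 72 h (SD, n = 4). The CTR and 12 h libraries overlapped in the sum, and with the rows summed the rule kept 28 lncRNAs.

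LINC01123 and LINC01106, of which the second was named after its values were seen, are copies on chromosome 2, 66.7% of the 75-base stretches of the first and 84.8% of the second being found in the other. Their RefSeq start windows were equal over 289 of 289 compared bases. LINC01123 was at 0.326, 0, 0.226 and 0.615 CPM in CTR and at 2.05, 2.35, 1.72 and 2.43 CPM at 12 h. The sum of both was 1.19 ± 0.330 CPM in CTR, 4.28 ± 0.283 CPM at 12 h, 3.17 ± 0.609 CPM at 24 h, 3.12 ± 0.271 CPM at 48 h and 3.24 ± 0.293 CPM at 72 h (SD, n = 4). At 48 h the SD of the sum was smaller than that of LINC01123 (0.770) or LINC01106 (0.645) alone.

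Values near the limits of the rule were as follows. LINC02595, at 0.553 CPM, and AC025442.2, at 0.593 CPM, were just inside the limit of 0.5 CPM, while AC025265.1 (0.486 CPM) and LINC01615 (0.467 CPM) were just outside. AC037459.2 had a ratio of 2.05 and AC025442.2 of 2.10, and the lncRNAs AL512274.1 and PVT1, a widely studied lncRNA next to MYC, both missed the limit at 1.96.

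The rule held the means at 24, 48 and 72 h below the 12 h mean, with the same bound for each, and did not set their order among themselves, which was tested. By that bound lncRNAs with a peak at 48 h (893 of 2425) or 72 h (667) could not be kept, whereas they are part of the shares over all genes and all lncRNAs given beside the counts. These shares are therefore not matched to the 29, and nothing is read from the difference. The bound also favours lncRNAs that are low at 48 h. The number of falls to 48 h and of rises from it is therefore a description only. The test was the quasi-likelihood test of edgeR over all genes with Benjamini-Hochberg adjustment. It could be made for 28 of 29 lncRNAs, since LINC02595 did not pass the filter on low counts. Fold changes in the test are TMM-scaled, whereas CPM is per library total, and this scaling moved the median log2 change of all genes from 0.17 to 0.02 for 48 against 24 h and from -0.10 to -0.01 for 72 against 48 h.

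From 24 to 48 h, 11 of 28 lncRNAs fell and 1 rose. Of all 16522 genes 24.3% fell and 25.9% rose, and of the 2403 lncRNAs tested 6.49% fell (156) and 35.9% rose (862). The largest falls were those of AP003555.1, by 1.57 on the log2 scale (SE 0.22, adjusted p = 3.10e-06), LINC00707, by 1.36 (SE 0.09, adjusted p = 1.22e-11), and LINC02721, by 1.20 (SE 0.33, adjusted p = 0.00458). LINC00862 rose by 0.53 (SE 0.11, adjusted p = 0.000358), with all 4 libraries at 48 h above all 4 at 24 h. The other falls were those of ELFN2 (-1.01), AC018690.1 (-0.93), AC046143.1 (-0.82), MIR23AHG (-0.62), MIR31HG (-0.56), LINC01285 (-0.49), LINP1 (-0.47) and SNHG15 (-0.24), while CYTOR (-0.16, adjusted p = 0.0759) and MIR4435-2HG (-0.01, adjusted p = 0.873) did not pass. The call of SNHG15 was lost without 24 h replicate 2 or 4 or 48 h replicate 1, 3 or 4 (adjusted p 0.0537 to 0.122), that of LINC01285 without 24 h replicate 4 (0.0567), and that of AC046143.1, which was named after its values were seen, without 24 h replicate 2 or 48 h replicate 3 or 4 (0.0690 to 0.0918). By library total alone 9 of 28 were called, without those 3.

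From 48 to 72 h, 9 of 28 rose and 1 fell, against 17.9% of all genes in each direction and 12.1% higher (290) and 16.9% lower (405) of the lncRNAs tested. AP003555.1 rose by 1.55 on the log2 scale (SE 0.22, adjusted p = 6.15e-06), LINC02721 by 1.28 (SE 0.33, adjusted p = 0.00387) and ELFN2 by 1.03 (SE 0.21, adjusted p = 0.000535). LINC01285 (0.82), LINC00707 (0.57), LINP1 (0.54), CYTOR (0.49), LINC00862 (0.32) and MIR4435-2HG (0.31) rose as well. MIR31HG fell by 0.34 (SE 0.09, adjusted p = 0.00601). The call of LINC00862 was lost without 48 h replicate 2 or 72 h replicate 1 or 3 (adjusted p 0.0549 to 0.0702), by library total alone (0.0935) and with the factors of the deposited normalized values (0.120). By library total alone 8 were higher and 2 lower. Both steps, here and for the coding genes below, use the same 4 libraries at 48 h, so they are not independent.

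Over both steps, the level of 17 of 29 lncRNAs was lowest at 48 h among the 3 later times (counting FP671120.4, which was at 0 at both 48 and 72 h), which was so for 22.1% of all genes tested and for 13.8% of the lncRNAs tested, both with the genes that peaked at 48 h, which the rule left out. The median log2 change over 27 lncRNAs, without FP671120.4, was -0.46 from 24 to 48 h and 0.32 from 48 to 72 h, beside 0.02 and -0.01 over all genes. From 24 to 72 h it was -0.07, beside 0.00.

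From 24 to 72 h, 3 of 28 lncRNAs were higher and 4 lower, against 20.6% and 19.7% of all genes. By library total alone the split was 4 higher and 3 lower. LINC00862 rose by 0.85 on the log2 scale (SE 0.11, adjusted p = 1.48e-06), CYTOR by 0.33 (SE 0.07, adjusted p = 0.000814) and MIR4435-2HG by 0.30 (SE 0.06, adjusted p = 0.000653). MIR31HG fell by 0.90 (SE 0.09, adjusted p = 4.26e-08), LINC00707 by 0.79 (SE 0.08, adjusted p = 8.81e-08), AC018690.1 by 0.59 (SE 0.22, adjusted p = 0.0323) and SNHG15 by 0.39 (SE 0.09, adjusted p = 0.00190). AC018690.1 was not called without 24 h replicate 3 or 72 h replicate 3 or 4 (adjusted p 0.0697 to 0.160), by library total alone (0.0577), with no filter beyond 1 count (0.0578) or in DESeq2 (0.0531), and 1 of its 24 h libraries stood apart at 3.72 CPM.

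**Figure D4:**
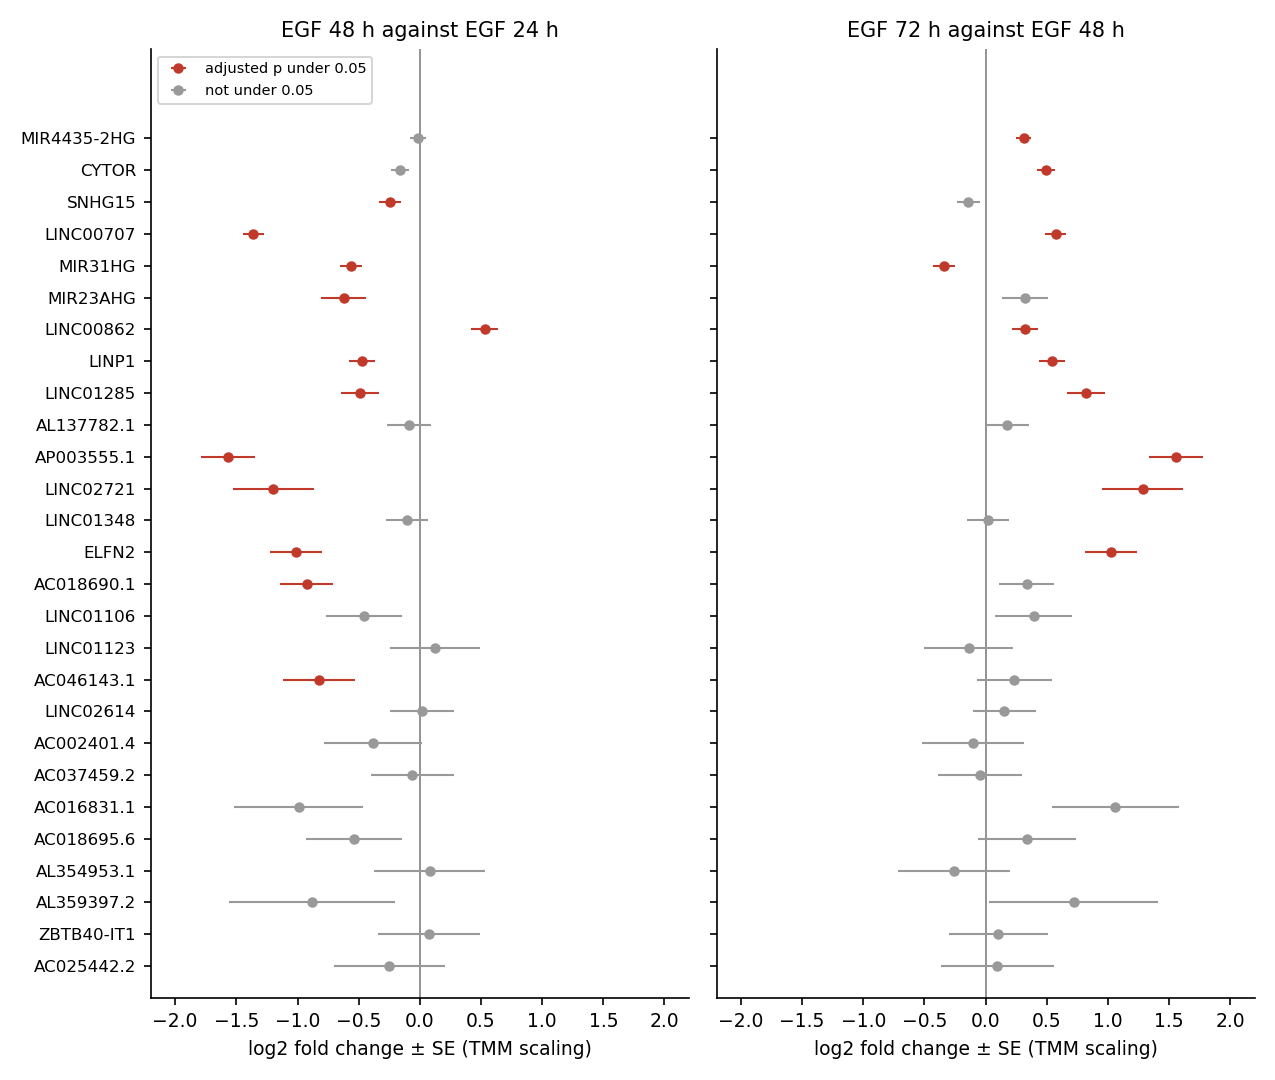
TMM-scaled log2 fold change with its SE for the lncRNAs tested, from 24 to 48 h (left) and from 48 to 72 h (right), in red where the adjusted p was under 0.05 and in grey elsewhere. LINC02595, not tested, and FP671120.4 are not drawn. Most called points lie left of 0 in the first panel and right of 0 in the second, AP003555.1 being the largest in both (-1.57 and 1.55), while MIR31HG lies left in both and LINC00862 right in both.

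Positions were found in GENCODE for 27 of the 29 lncRNAs. They had a median of 4 exons, beside 3 over the 2215 expressed lncRNAs with a position. The median distance from their start to the nearest start of a coding gene was 47552 bases, beside 13196 bases. A coding start within 1000 bases was found for 4 of 27 (14.8%, beside 32.0%), and 13 (48.1%, beside 28.1%) were more than 50000 bases away. Chromosome 2 held 5 of the 29, or 17.2%, beside 7.75% of all expressed lncRNAs, and 4 of these 5 form the 2 pairs of copies. Exon bases were shared with another gene for 16 of 27, on the same strand for 10 and on the opposite strand for 10. On the opposite strand, AL359397.2 shared 100% with DMAC2L and AC037459.2 shared 50.8% with CCAR2. The mean of DMAC2L was 9.48 CPM in CTR and 4.84 CPM at 12 h. Whether counting used strand is not given in the sources used here.

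The nearest coding genes, 26 in all, were those with the closest start on either strand, and 18 of them passed the filter. Their 12 h values are given without a test, because the lncRNAs were selected on that contrast. The 12 h mean was above CTR for 11 of 18 and at least 2 times CTR for 2. Those were the coding row ELFN2, a membrane protein of synapses, with 4.76 ± 0.955 CPM in CTR and 20.1 ± 1.23 CPM at 12 h, and ANO1, a calcium-activated chloride channel 57243 bases from AP003555.1, with 180 ± 21.0 and 485 ± 24.8 CPM (SD, n = 4). PDK2, a kinase that inhibits pyruvate dehydrogenase and lies 672 bases from AC002401.4, took the opposite course, with 14.4 ± 1.92 CPM in CTR and 3.56 ± 0.505 CPM at 12 h.

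From 24 to 48 h, 12 of 18 neighbouring coding genes fell and 2 rose (24.3% and 25.9% of all genes). From 48 to 72 h 2 of 18 fell and 4 rose, which is 11.1% and 22.2% and near the 17.9% of all genes in each direction. By library total alone the first split was 4 lower and 2 higher, and with DESeq2 size factors the second was 1 lower and 4 higher. ANO1 was at 407 ± 21.7 CPM at 24 h, 172 ± 8.87 CPM at 48 h and 290 ± 15.5 CPM at 72 h (SD, n = 4). It fell by 1.39 on the log2 scale (SE 0.07, adjusted p = 3.07e-13) and then rose by 0.84 (SE 0.07, adjusted p = 2.17e-09), as AP003555.1 had. PRKCQ, a protein kinase C whose start is the nearest to both LINP1 and LINC00707, fell by 0.68 (SE 0.15, adjusted p = 0.000539) and rose by 0.74 (SE 0.15, adjusted p = 0.00039). The coding row ELFN2 fell by 0.76 (SE 0.11, adjusted p = 6.26e-06) and rose by 0.51 (SE 0.11, adjusted p = 0.001). PDK2 rose by 1.27 (SE 0.14, adjusted p = 9.75e-08) and then fell by 0.76 (SE 0.13, adjusted p = 0.000111), whereas AC002401.4 did not pass either test (adjusted p = 0.453 and 0.907).

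**Figure D5:**
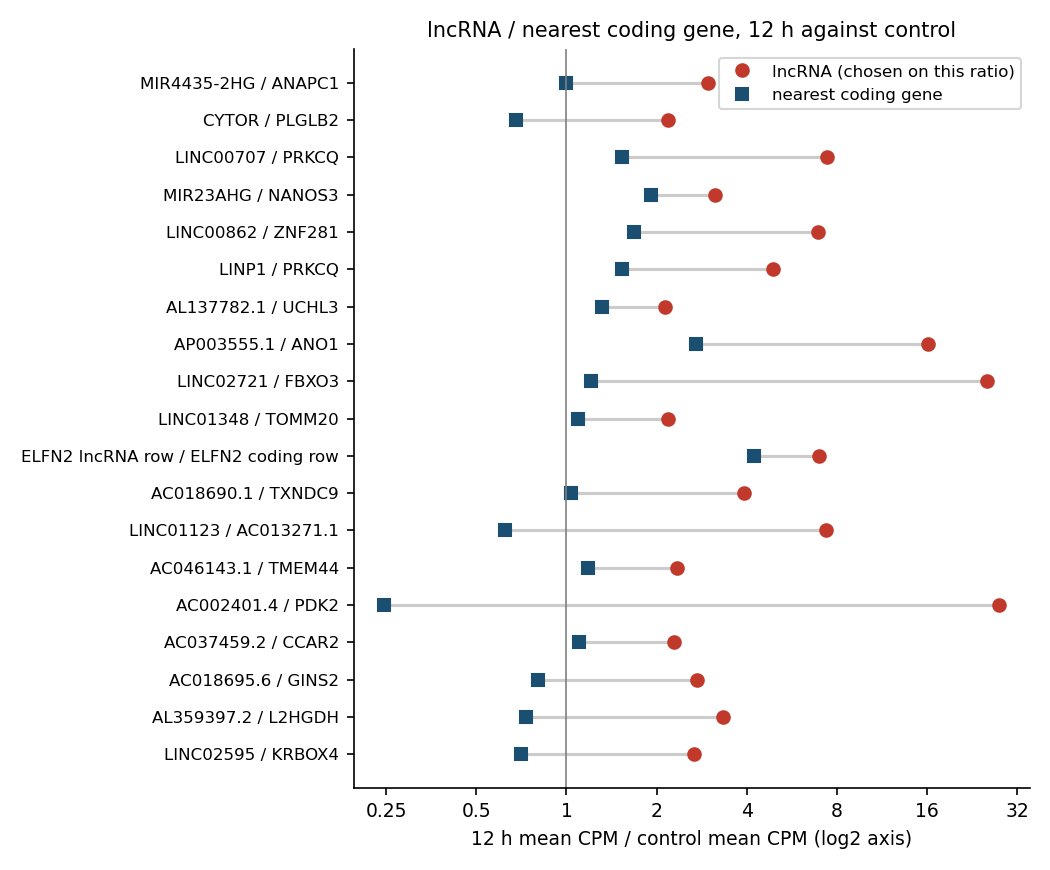
Ratio of the 12 h to the CTR mean on a log2 axis for each lncRNA (red circle) and its nearest coding gene (blue square), for the 19 pairs whose coding gene passed the filter, PRKCQ being in 2 of them. The lncRNAs are above 2 by the rule, while of the coding genes only the coding row ELFN2 (4.22) and ANO1 (2.70) are, and PDK2 (0.247) is far below 1.

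Other host genes and widely studied lncRNAs went both ways at 12 h. The lncRNAs left out of these lists were selected on 12 h against CTR, which lowers the number of rises that remain. With them, 6 of 29 snoRNA host genes, 10 of 27 microRNA host genes and 7 of 27 widely studied lncRNAs rose. Nothing is read from the difference between these lists and all genes at 12 h. At 12 h against CTR, 32.9% of all genes were higher and 36.5% lower, and of all 2403 lncRNAs tested 276 were higher and 1237 lower (204 and 1467 by library total alone). Of 28 snoRNA host genes other than SNHG15, 5 rose and 11 fell (5 and 19 by library total alone). The most abundant was ZFAS1, at 349 ± 54.2 CPM in CTR and 301 ± 8.47 CPM at 12 h (adjusted p = 0.478). SNHG16 rose by 1.02 on the log2 scale (SE 0.06, adjusted p = 4.56e-13), with 268 ± 6.61 CPM in CTR and 446 ± 18.7 CPM at 12 h (SD, n = 4). SNHG29 fell by 0.23 (SE 0.06, adjusted p = 0.00197).

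Of 24 microRNA host genes other than the 3 described here, 7 rose and 8 fell (6 and 12 by library total alone). MIR205HG, the host of miR-205, rose by 0.49 (SE 0.07, adjusted p = 2.65e-06), from 176 ± 6.67 to 203 ± 15.9 CPM (SD, n = 4). MIR4280HG rose by 0.53 (SE 0.20, adjusted p = 0.0254) and MIR1915HG fell by 1.31 (SE 0.09, adjusted p = 2.93e-12). Of 26 widely studied lncRNAs other than CYTOR, 6 rose and 13 fell (5 and 16 by library total alone). LINC01278 fell by 0.74 on the log2 scale (SE 0.09, adjusted p = 2.34e-07) and AFAP1-AS1 rose by 0.40 (SE 0.07, adjusted p = 3.26e-05), while MALAT1, a nuclear lncRNA, was at -0.07 (SE 0.11, adjusted p = 0.569). From 24 to 48 h, 9 of these 28 snoRNA host genes rose and 4 fell, 9 of 24 microRNA host genes rose and 3 fell, and 7 of 26 widely studied lncRNAs rose and 3 fell. The rises, 32.1%, 37.5% and 26.9%, were near those of all lncRNAs (35.9%) and all genes (25.9%). From 48 to 72 h the same lists had 2, 2 and 4 rises and 6, 4 and 7 falls, where 12.1% of all lncRNAs rose and 16.9% fell.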

How the data were processed

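RNA was isolated with RNeasy Mini columns and made into libraries by the Lexogen Corall method for mRNA. The deposited tables hold expected counts per gene, which the authors had rounded to whole numbers, beside normalized values, a score made by the authors with DESeq2. The build was hg38, per the submitters' processing notes. The aligner, the counter, the annotation release and the use of strand or molecular identifiers are not given in the sources used here. All 10 tables hold the same counts, so 1 was read. The fold changes and p-values of the authors' own comparisons were not used.

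CPM was computed over the library total. Tests used edgeR 4.0.16 (quasi-likelihood, robust, two-sided) in R 4.3.3 with limma 3.58.1, TMM scaling, the default filterByExpr (16522 of 33535 genes with at least 1 count kept), all 20 libraries and Benjamini-Hochberg adjustment over all genes at 0.05. The script was tested on simulated data. DESeq2 1.42.0 was an alternative. Other alternatives were library totals, filters on low counts, a replicate block, leaving out single libraries and, chosen after seeing the data, the factors of the deposited normalized values, these values in place of CPM, and the sum of FP671120.4 with its copy. Positions came from GENCODE 29 on GRCh38, and sequences from RefSeq (GRCh38.p14).

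The members and lists were chosen with earlier results of these data known. Named are the 12 lncRNAs with the highest 12 h CPM, the 12 with the highest ratio, the 3 largest called rises and falls per comparison, those in the lists of host genes and widely studied lncRNAs, and those next to the limits. Beside these, the other lncRNAs called from 24 to 48 h or from 48 to 72 h were named after their values were seen. So were AL359397.2, DMAC2L, LMO7, CCAR2 and FP236383.3. Replicate libraries differed by more than sampling noise in all 30 pairs. Replicate numbers were not taken as a pairing of libraries. Intervals cover counting error only.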

Additional observations from a re-analysis of the deposited data

Results flagged for a closer look

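In 6 of 142 groups of 4 libraries, 1 library stood apart from the other 3 by more than Dixon's 95% limit. Chance flags about 1 in 20 groups, which would be 7.1 of 142. For FP671120.4 at 24 h this was replicate 4, with 10.97 CPM (235 counts) where the others had 0, and in the same library its copy FP236383.3 had 56 counts. For AC018690.1 at 24 h, replicate 3 was at 3.72 CPM and the others at 2.26 to 2.38 CPM. LINC01106 was at 1.62 CPM in CTR replicate 2 and at 0.598 to 0.722 CPM in the others, and LINC01123, its copy, had 0 counts in that library. AC046143.1 at 72 h was at 1.38 CPM in replicate 2 and at 0.758 to 0.773 CPM in the others. AL354953.1 at 72 h was low in replicate 4, with 0.128 CPM (2 counts) against 0.464 to 0.525 CPM, and AC025442.2 at 12 h was at 0.715 CPM in replicate 3 against 0.538 to 0.566 CPM. The causes were not tested.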

How the results depend on the processing

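The main numbers were 29 lncRNAs kept, 12, 10 and 7 of them called from 24 to 48 h, 48 to 72 h and 24 to 72 h, and 14 and 6 neighbouring coding genes called in the first and second of these. The number kept became 46 with a ratio of at least 1.5, 15 with a ratio of at least 3, 19 with 0.5 CPM added, 57 with CPM after TMM, and 55 with the deposited normalized values in place of CPM. From 24 to 48 h, 7 lncRNAs were called with at least 10 counts in every library, a filter that left 13 of them to test, and 6 with the factors of the deposited normalized values, for which 11 could be tested. With those factors 6 were called from 48 to 72 h. By library total alone 6 neighbouring coding genes were called from 24 to 48 h. The other settings for all libraries moved these numbers by less than 1.5 times, and DESeq2 called 14, 10 and 7 lncRNAs. Leaving out single libraries gave 27 to 33 lncRNAs kept, 10 to 13, 9 to 10 and 6 to 8 of them called, and 12 to 14 and 4 to 6 coding genes called, the 4 being reached without 48 h replicate 1 or 2 or 72 h replicate 2. The lncRNAs kept also changed with single libraries. LINC00707 was not kept without 24 h replicate 1, nor MIR23AHG without 12 h replicate 2 or 24 h replicate 1. ELFN2 was not kept without 12 h replicate 2 or 72 h replicate 2. AC018690.1, AC016831.1, AL137782.1, LINC01348, AC037459.2, AC025442.2 and LINC02595 were each lost without at least 1 single library. None of the calls made for a lncRNA here reversed in direction when refitted. They were kept in 420 refits and lost in 27, for SNHG15, AC046143.1 and LINC01285 from 24 to 48 h, LINC00862 from 48 to 72 h and AC018690.1 from 24 to 72 h, and the cause was not tested beyond the libraries named above.

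A replicate block left 12, 10 and 7 lncRNAs and 14 and 6 coding genes called, the same ones. Same-numbered libraries correlated at 0.049 to 0.322 between 24 and 48 h (3 of 4 best with their own number), at -0.484 to 0.118 between 48 and 72 h (0 of 4) and at -0.186 to -0.019 between 24 and 72 h (0 of 4), so the numbers were not taken as a pairing in these comparisons. Between 12 and 48 h, which were not compared by a test, they correlated at 0.138 to 0.287 (3 of 4). Depth limits the 9 lncRNAs under 1 CPM at 12 h, for which a miss of the threshold does not show equal levels.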
